A study of Homo sapiens with 6 samples.

Results

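Genes that the ERK pathway switches on, several of which limit its signalling in turn, were followed in BxPC-3 cells given the microRNA miR-4711-5p. The 9 genes were the rows of the gene tables whose symbol is on a list of ERK feedback and output genes, *DUSP4*, *DUSP5*, *DUSP6*, *SPRY2*, *SPRY4*, *SPRED1*, *ETV4*, *ETV5* and *PHLDA1*, out of 26255 symbols. All 9 passed the filter on low values and were among the 12040 genes tested. BxPC-3 is an established human pancreatic cancer cell line that is generally described as having an in-frame deletion in *BRAF*. RNA was sequenced from 3 groups of 2 libraries each. The Parent group had no treatment, the NC-1 group was given a negative control, and the miR-4711-5p group was given the microRNA. The treated cells were taken 36 h after transfection, and all 6 libraries came from the same cell line in culture. The labels do not say whether the libraries of a group came from separate cultures, so the p-values measure only the spread between these libraries, which may be technical.

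Growth factor receptors such as MET pass their signal through RAS to the kinases RAF, MEK and ERK. Active ERK switches on the transcription of genes whose products then hold the same pathway back, among them phosphatases that inactivate ERK and the Sprouty and SPRED proteins that act near RAS and RAF. Because of this, the transcript levels of these genes are widely used as a readout of ERK activity in tumor cells.

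Each value is in FPKM, by definition the fragments assigned to a gene scaled by the length of its exons and by the number of mapped fragments in the library, so levels can be set side by side between genes. The FPKM of a library summed to between 493145 and 550772, and 16597 to 17305 symbols were above 0. FPKM keeps no read numbers. From the steps between the lowest values, the depth relative to Parent replicate 1 was roughly 0.873 for Parent replicate 2, 0.751 and 0.857 for NC-1 replicates 1 and 2, and 1.08 and 1.21 for miR-4711-5p replicates 1 and 2. The 6 markers of pancreatic ductal epithelium (*KRT7*, *KRT8*, *KRT18*, *KRT19*, *EPCAM* and *MUC1*) were between 14.6 and 1842 FPKM in every library and summed to 5787 to 6163 FPKM in Parent, 5165 to 5447 in NC-1 and 5179 to 5234 with miR-4711-5p. With miR-4711-5p, *KRT19* (890.1 and 912 FPKM, against 1294 and 1254 in NC-1) and *MUC1* (14.6 and 15.6 FPKM, against 21.9 and 27.0 in NC-1) fell and *KRT18* rose against both references (limma adjusted p against NC-1 and Parent 0.000337 and 2.58e-05 for *KRT19*, 0.00163 and 0.000251 for *MUC1*, 0.00172 and 0.0138 for *KRT18*). *EPCAM* was higher and *KRT7* lower than in all 4 control libraries, and both passed the test against NC-1 (0.00424 and 0.0224) but not against Parent (0.0801 and 0.144). *KRT8* was called higher against NC-1 (0.0104) and not against Parent (0.233). No leukocyte marker was over 0.139 FPKM (1 of 4 was at 0 in every library), and no fibroblast marker was over 2.35 FPKM. The 3 endothelial markers, *PECAM1*, *VWF* and *CDH5*, summed to 1.33 to 1.39 FPKM in Parent, 3.23 to 3.53 in NC-1 and 0.649 to 0.775 in miR-4711-5p, with 1 of the 3 at a mean of at least 1 FPKM. The part of these marker signals in the results was not tested.

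A microRNA lowers transcripts mainly through sites in their 3′ UTR that pair with its seed, bases 2 to 8 from its 5′ end. The mature miR-4711-5p sequence from RefSeq (GRCh38.p14, chr1:59733269-59733291, minus strand, 23 bases) is shown first because the site search rests on it, with the seed in capitals. The other lines are the only seed match found in the coding sequences and 3′ UTRs of the 9 genes, which lies in the coding sequence of *SPRED1* (5′ UTRs were not searched), and the 3′ UTR matches of the 5 other pathway genes with one that were lower with miR-4711-5p against both references. They are in the sense of the transcript, 5′ to 3′, from the GRCh37 (hg19) genome with GENCODE v44 transcripts lifted to that build, with the bases that match the seed in capitals.
miR-4711-5p: uGCAUCAGgccagaagacaugag
SPRED1 coding, chr15:38614554-38614560, plus strand: tcaaagtcctgCTGATGCtagggcttttga
MET 3′ UTR, chr7:116438424-116438430, plus strand: ttaaagtaaagTGATGCAa
TGFA 3′ UTR, chr2:70674685-70674691, minus strand: ttataataaacCTGATGCttttttttagaa
DUSP9 3′ UTR, chrX:152916626-152916633, plus strand: atgctagcccaCTGATGCAcccagcccagg
SHC1 3′ UTR, chr1:154936010-154936016, minus strand: cctgtgccaacCTGATGCcccttccccaag
ARAF 3′ UTR, chrX:47430942-47430948, plus strand: tcgtctctgccCTGATGCtgcctcaggatc
The lines for *SPRED1*, *TGFA*, *SHC1* and *ARAF* hold CTGATGC, the complement of the whole seed (a 7mer-m8 site). Not every annotated 3′ UTR of these genes holds the site shown. It is in 1 of 2 for *ARAF*, 1 of 6 for *TGFA*, 2 of 3 for *MET*, 5 of 6 for *SHC1* and 2 of 2 for *DUSP9*. The *MET* line holds TGATGCA, in which bases 2 to 7 pair and an A follows (a 7mer-A1 site), and is short because the 3′ UTR ends there. The *DUSP9* line holds both at once, CTGATGCA (an 8mer site).

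None of the 9 genes had a site of any of these types in its longest 3′ UTR, nor in any other annotated 3′ UTR. Among the 11186 tested genes with an annotated 3′ UTR, 18.4% had one in the longest and 20.5% in any. The longest 3′ UTRs of the 9 genes ran from 675 bases in *ETV4* to 5585 bases in *SPRED1*, against a median of 1492 bases over all these genes, and came to 24909 bases together. The shorter match to bases 2 to 7, which every longer site also holds, was in no annotated 3′ UTR of the 9 genes. Of the 11186 tested genes with an annotated 3′ UTR, 33.9% had it in at least 1. No match says only that these letters are not in the annotated sequence. *SPRED1*, with the single coding match, was not among the genes that were lower with miR-4711-5p.

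The question put to the data was how the transcript levels of these genes stood with miR-4711-5p against NC-1 and against Parent. *DUSP5* and *DUSP6* rose with miR-4711-5p against both references, and *DUSP4*, *ETV4* and *ETV5* fell against both. *SPRY2*, *SPRY4*, *SPRED1* and *PHLDA1* were higher than in Parent but did not pass the test against NC-1. Against NC-1, limma called 5 of the 9 genes, 2 higher and 3 lower, where 39.6% of all tested genes were called, 18.4% higher and 21.2% lower. Against Parent it called 9 of 9, 6 higher and 3 lower, where 43.4% of all genes were called, 18.7% higher and 24.7% lower. Fewer of the 9 were called against Parent without either Parent library or without miR-4711-5p replicate 1, and fewer genes in all. Between NC-1 and Parent limma called 1 of 9, which was higher, where 27.2% of all genes were called, 12.1% higher and 15.1% lower. This count of 1 was 0 without any 1 of the 4 libraries, 4 with a median-of-ratios scaling and 6 with an equal sum of FPKM, and the genes called in all went from 3279 to 1355 without Parent replicate 1, 2154 without Parent replicate 2, 1591 without NC-1 replicate 1 and 1944 without NC-1 replicate 2. A gene was called at an adjusted p under 0.05. Without miR-4711-5p replicate 1, 3 of the 9 genes were called against NC-1, and without miR-4711-5p replicate 2 also 3, while the genes called in all went from 4763 to 2815 and 2991 of 12040. Of all genes called, 46.5% were higher against NC-1, 43.1% against Parent and 44.4% for NC-1 against Parent, and with every library scaled to an equal sum of FPKM 58.4%, 69.3% and 69.9%, while no call of the 9 genes changed direction. The median log2 fold change of the 9 genes was 0.07 against NC-1, 0.28 against Parent and 0.14 for NC-1 against Parent, and that of all tested genes was 0.00, -0.01 and -0.01. The comparisons against NC-1 and against Parent share the 2 miR-4711-5p libraries, so their values are given side by side and not as support for each other. In bulk RNA, fewer cells that express a gene and less RNA per cell cannot be told apart.

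**Figure D1:**
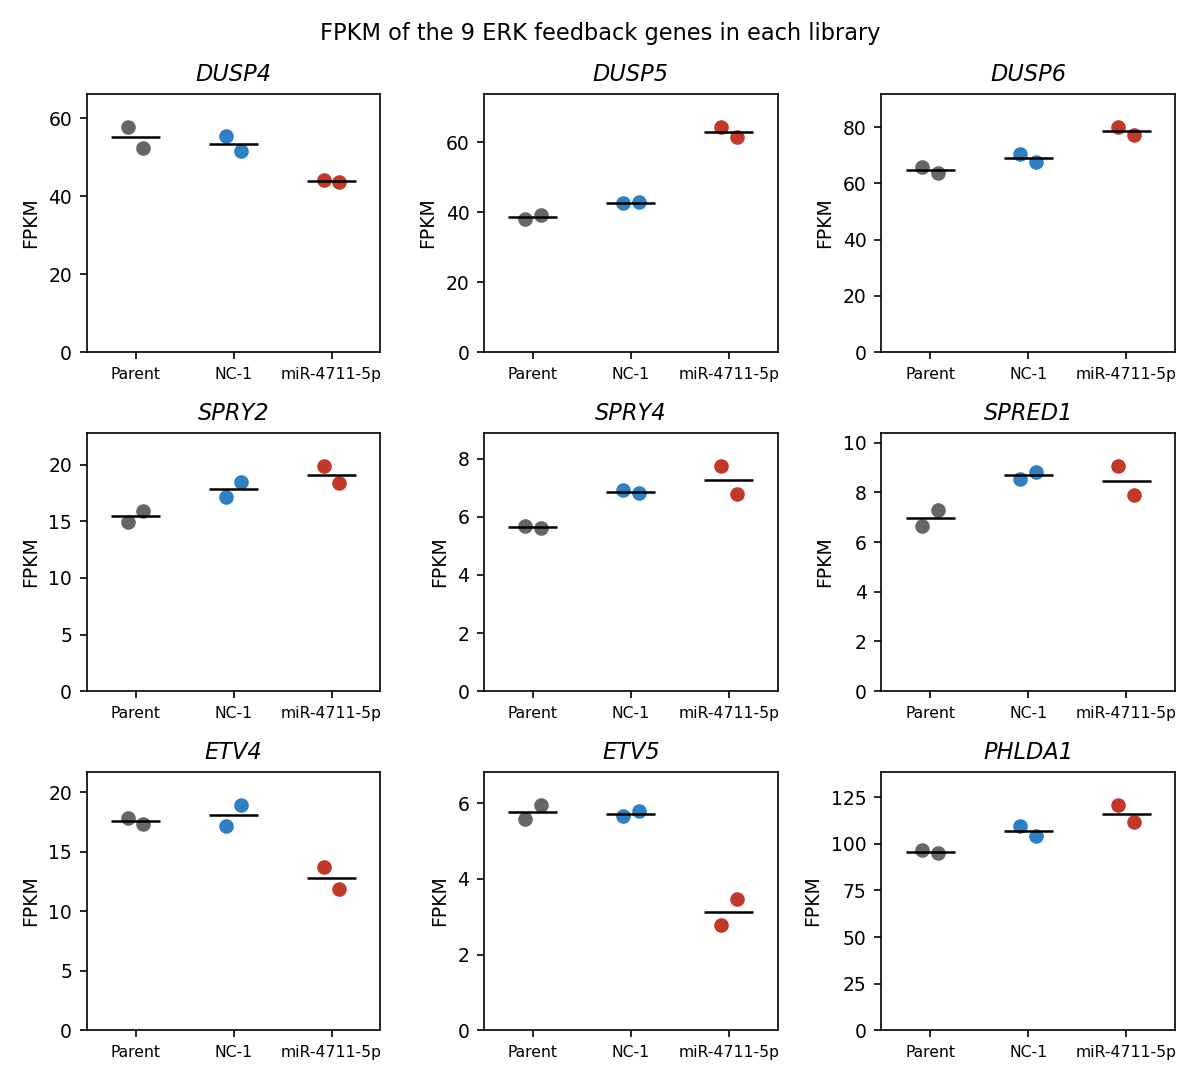
FPKM of each of the 9 ERK feedback genes (vertical axes, from 0) in the Parent, NC-1 and miR-4711-5p libraries; each point is 1 library and each bar the mean of the 2 libraries. *DUSP5* stands at 61.5 and 64.3 FPKM with miR-4711-5p, above its 4 control libraries, and *ETV5* at 2.79 and 3.47 FPKM, below them.

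The plot of FPKM by library shows these patterns side by side. *PHLDA1* and *DUSP6* had the highest levels in Parent, with means of 95.8 and 64.8 FPKM, which placed them at the 92.4th and 88.3rd percentile of the tested genes. *DUSP4* (55.1 FPKM) and *DUSP5* (38.7 FPKM) followed, and *ETV4* (17.6 FPKM), *SPRY2* (15.4 FPKM), *SPRED1* (6.97 FPKM), *ETV5* (5.76 FPKM) and *SPRY4* (5.66 FPKM) were lower. The 2 Parent libraries of neighbouring genes did not overlap in this order, except those of *ETV5* and *SPRY4*. With miR-4711-5p, *DUSP5* (62.9 FPKM) stood above *DUSP4* (43.9 FPKM), and *ETV5*, at 3.13 FPKM, was the lowest of the 9.

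Of the 3 phosphatases, which remove the activating phosphates from ERK, 1 fell and the other 2 rose with miR-4711-5p. *DUSP4* encodes a nuclear enzyme that acts on ERK and also on other MAP kinases. Its level was 57.7 and 52.5 FPKM in the Parent libraries, 55.4 and 51.7 FPKM in the NC-1 libraries and 44.1 and 43.8 FPKM in the miR-4711-5p libraries. Both miR-4711-5p libraries were below the 4 control libraries, among which Parent and NC-1 overlapped. *DUSP4* fell by 18.0% against NC-1 (log2 fold change -0.28 ± 0.06 SE, n = 2 per group, limma adjusted p = 0.00961). Against Parent it fell by 20.3% (log2 fold change -0.32 ± 0.06, limma adjusted p = 0.00495). The call against NC-1 was lost when single libraries were left out, with a limma adjusted p of 0.0584 without NC-1 replicate 1, 0.0578 without miR-4711-5p replicate 1 and 0.0620 without miR-4711-5p replicate 2.

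*DUSP5* (chr10:112257665-112271291, plus strand, GRCh37) encodes a nuclear phosphatase that is selective for ERK, and had the largest increase of the 9 genes in both comparisons. It was measured at 38.2 and 39.3 FPKM in Parent, at 42.6 and 43.0 FPKM in NC-1 and at 64.3 and 61.5 FPKM with miR-4711-5p. The 3 groups did not overlap, and the gap between the miR-4711-5p and NC-1 libraries was much wider than the spread within any group. The increase was 1.47-fold against NC-1 (log2 fold change 0.55 ± 0.05 SE, limma adjusted p = 0.000159) and 1.62-fold against Parent (0.69 ± 0.05, limma adjusted p = 4.57e-05). NC-1 was 1.10-fold of Parent, which did not pass the test (limma adjusted p = 0.0604), although it did with a median-of-ratios scaling (adjusted p = 0.0465) and with an equal sum of FPKM (adjusted p = 0.0169).

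*DUSP6* (chr12:89741012-89746278, minus strand) encodes the cytoplasmic phosphatase that is selective for ERK. It stood at 65.9 and 63.6 FPKM in Parent, 70.5 and 67.8 FPKM in NC-1 and 79.9 and 77.3 FPKM with miR-4711-5p. As for *DUSP5*, the groups did not overlap and the order was Parent, NC-1, miR-4711-5p, but the steps were smaller. It rose 1.14-fold against NC-1 (log2 fold change 0.18 ± 0.05 SE, limma adjusted p = 0.0180) and 1.21-fold against Parent (0.28 ± 0.05, limma adjusted p = 0.00296). The call against NC-1 was lost without NC-1 replicate 2 (adjusted p = 0.0788), without miR-4711-5p replicate 1 (0.112) and without miR-4711-5p replicate 2 (0.0581). NC-1 against Parent did not pass (limma adjusted p = 0.175), except with an equal sum of FPKM (adjusted p = 0.0295).

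The 3 inhibitors that act upstream of the kinases, between the receptors and RAF, were higher than in Parent and overlapped with NC-1. *SPRY2* (chr13:80910111-80915261, minus strand), a Sprouty protein that dampens signalling from receptor tyrosine kinases, was at 15.0 and 15.9 FPKM in Parent, 17.2 and 18.5 FPKM in NC-1 and 19.9 and 18.4 FPKM with miR-4711-5p. The second miR-4711-5p library lay just below the second NC-1 library, while all Parent values were lower. *SPRY2* rose 1.24-fold against Parent (log2 fold change 0.29 ± 0.07 SE, limma adjusted p = 0.00980), a call that was lost without Parent replicate 1 (0.0606) and without miR-4711-5p replicate 1 (0.0806). Its log2 fold change against NC-1 was 0.10 (95% interval -0.06 to 0.25, limma adjusted p = 0.270). For NC-1 against Parent the limma adjusted p was 0.0622, and it passed with a filter at a mean of 5 FPKM (0.0451) and with an equal sum of FPKM (0.0261).

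*SPRY4* (chr5:141689992-141706020, minus strand), a second Sprouty protein, had 5.70 and 5.62 FPKM in Parent, 6.91 and 6.81 FPKM in NC-1 and 7.74 and 6.80 FPKM with miR-4711-5p. The miR-4711-5p libraries were the most spread, and the lower of them was level with NC-1. Against Parent it rose 1.28-fold (log2 fold change 0.31 ± 0.07 SE, limma adjusted p = 0.0133). That call was lost without Parent replicate 1 (0.0557), without Parent replicate 2 (0.0610) and without miR-4711-5p replicate 1 (0.0980). The log2 fold change against NC-1 was 0.07 (95% interval -0.10 to 0.25, limma adjusted p = 0.480). NC-1 against Parent, at 0.24, had a limma adjusted p of 0.0506, and passed with a median-of-ratios scaling (0.0445), a pseudocount of 0.1 (0.0449) or 0.5 (0.0484) and an equal sum of FPKM (0.0251).

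*SPRED1* (chr15:38545037-38649450, plus strand) encodes a protein that brings neurofibromin, an inactivator of RAS, to the membrane. Its level was 6.65 and 7.30 FPKM in Parent, 8.56 and 8.81 FPKM in NC-1 and 9.06 and 7.88 FPKM with miR-4711-5p, which enclosed the NC-1 values. It was the only one of the 9 genes called between NC-1 and Parent, at 1.25-fold (log2 fold change 0.28 ± 0.08 SE, limma adjusted p = 0.0401). This call was lost when any 1 of the 4 libraries was left out, with an adjusted p of 0.182 without Parent replicate 1, 0.0687 without Parent replicate 2, 0.122 without NC-1 replicate 1 and 0.149 without NC-1 replicate 2. With miR-4711-5p it was 1.21-fold of Parent (0.25 ± 0.08, limma adjusted p = 0.0430), and the adjusted p was 0.194 without Parent replicate 1, 0.0624 without Parent replicate 2 and 0.251 without miR-4711-5p replicate 1. Both calls, of NC-1 and of miR-4711-5p against Parent, were also lost without a filter, without the trend, with only the 2 groups compared and with the replicate number as a block. Against NC-1 the log2 fold change of *SPRED1* with miR-4711-5p was -0.04 (95% interval -0.22 to 0.15, limma adjusted p = 0.756).

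*ETV4* and *ETV5*, ETS transcription factors of the PEA3 group that carry growth factor signals to other genes, both fell with miR-4711-5p. *ETV4* (chr17:41605212-41656988, minus strand) was at 17.8 and 17.3 FPKM in Parent, 17.2 and 18.9 FPKM in NC-1 and 13.7 and 11.9 FPKM with miR-4711-5p. The control groups overlapped and both miR-4711-5p libraries were below them. It fell by 29.2% against NC-1 (log2 fold change -0.47 ± 0.08 SE, limma adjusted p = 0.00327) and fell by 27.1% against Parent (-0.43 ± 0.08, limma adjusted p = 0.00421).

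*ETV5* (chr3:185764103-185828107, minus strand) had the largest change of the 9 genes on the log2 scale against NC-1. Against Parent its change and that of *DUSP5* were close in size, and which was larger turned with the scaling and with the library left out. Its level was 5.58 and 5.95 FPKM in Parent, 5.67 and 5.79 FPKM in NC-1 and 2.79 and 3.47 FPKM with miR-4711-5p. The 4 control libraries lay close together, with the NC-1 values inside the Parent range, and the miR-4711-5p libraries were well below. It fell by 45.3% against NC-1 (log2 fold change -0.71 ± 0.09 SE, limma adjusted p = 0.00121) and by 45.6% against Parent (-0.71 ± 0.09, limma adjusted p = 0.00102). The log2 values are of FPKM + 1, which understates the change of a gene as low as *ETV5*. Between NC-1 and Parent the log2 fold change was 0.04 for *ETV4* (limma adjusted p = 0.753) and -0.01 for *ETV5* (limma adjusted p = 0.963).

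*PHLDA1* (chr12:76419227-76425556, minus strand) encodes a pleckstrin homology-like domain protein whose transcription follows ERK activity. It had 96.8 and 94.9 FPKM in Parent, 109.7 and 104.3 FPKM in NC-1 and 121 and 112 FPKM with miR-4711-5p. The groups did not overlap, although the lower miR-4711-5p library was close to the higher NC-1 library. It rose 1.21-fold against Parent (log2 fold change 0.28 ± 0.05 SE, limma adjusted p = 0.00515). Against NC-1 it was at 1.09-fold (log2 fold change 0.12, 95% interval -0.01 to 0.24), with a limma adjusted p of 0.115, and of 0.0397 with an equal sum of FPKM. NC-1 against Parent did not pass (limma adjusted p = 0.0627), but did with a median-of-ratios scaling (0.0485) and an equal sum of FPKM (0.0177).

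**Figure D2:**
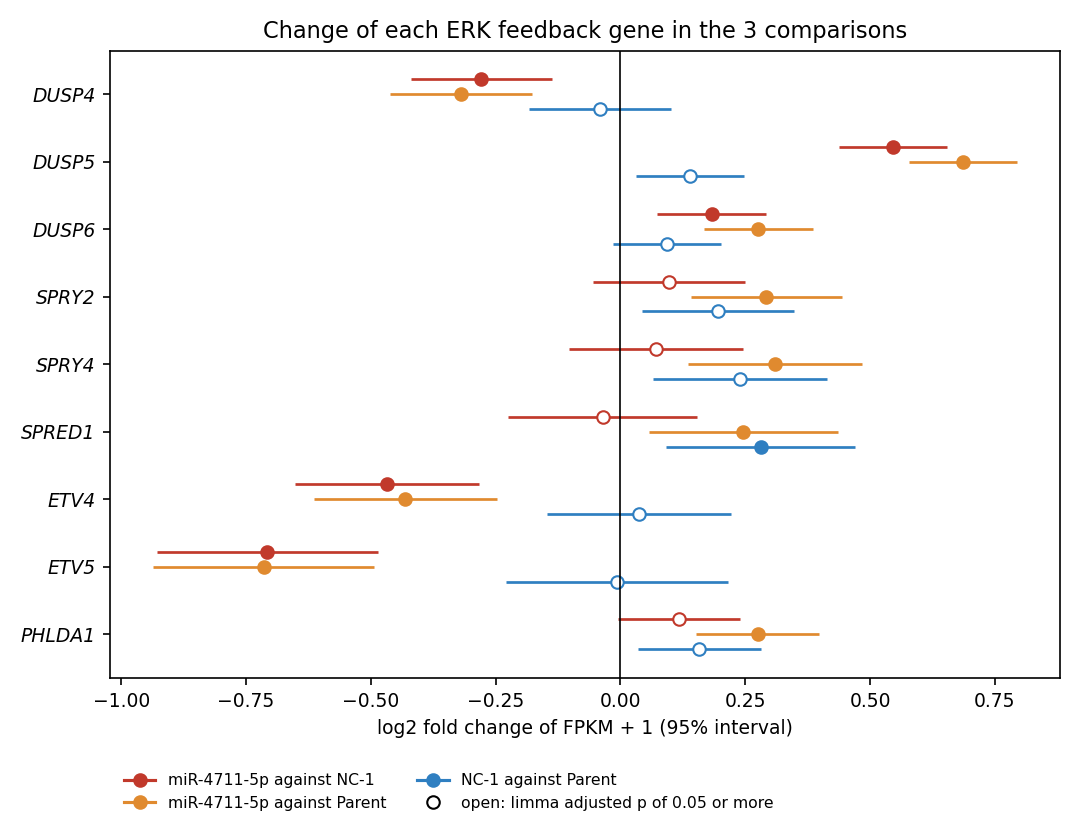
Log2 fold change of FPKM + 1 (horizontal axis) of each of the 9 genes, with its 95% interval from limma, in the 3 comparisons; filled points have an adjusted p under 0.05 and open points do not. *DUSP5* lies at 0.55 and 0.69 and *ETV5* at -0.71 and -0.71 against NC-1 and Parent.

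The plot of log2 fold changes shows the comparison of NC-1 with Parent beside those of miR-4711-5p. For *DUSP4*, *ETV4* and *ETV5*, the NC-1 values were near 0 (-0.04, 0.04 and -0.01) and the miR-4711-5p values were alike against both references. *DUSP5* had a log2 fold change of 0.14 between NC-1 and Parent and of 0.55 between miR-4711-5p and NC-1. *SPRY2*, *SPRY4*, *SPRED1* and *PHLDA1* had larger values for NC-1 against Parent (0.20, 0.24, 0.28 and 0.16) than for miR-4711-5p against NC-1 (0.10, 0.07, -0.04 and 0.12). The 2 sets of values were not tested against each other. The libraries of 6 of the 9 genes did not overlap between miR-4711-5p and NC-1, against 72.4% of all tested genes. Against Parent this held for 9 of 9 genes and 74.2% of all, and between NC-1 and Parent for 6 of 9 genes and 65.5% of all. Genes called against both references with the same sign were 2 of the 9 in the higher direction and 3 of the 9 in the lower, where 10.0% and 15.4% of all tested genes were.

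MET, the receptor of hepatocyte growth factor, and BRAF, the RAF kinase described as carrying the deletion in this line, act upstream of ERK. Their transcript levels are given here, and an effect of these levels on ERK activity was not tested. *MET* had 115 and 117 FPKM in Parent, 115 and 111 FPKM in NC-1 and 55.1 and 55.0 FPKM with miR-4711-5p. It fell by 51.3% against NC-1 (log2 fold change -1.02 ± 0.04 SE, limma adjusted p = 8.35e-06) and by 52.5% against Parent (-1.06 ± 0.04, limma adjusted p = 5.6e-06). *BRAF* was at 6.86 and 7.65 FPKM in Parent, 8.05 and 7.74 FPKM in NC-1 and 8.43 and 8.02 FPKM with miR-4711-5p. It did not pass the test against NC-1 (limma adjusted p = 0.593) or Parent (0.104, and 0.0180 with an equal sum of FPKM), and 3 of its 5 annotated transcripts with a 3′ UTR hold a seed site there.

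Beside the 9 genes, 62 other genes of the pathway in 8 lists were counted. *DUSP8*, *SPRY3* and *FGFR4* did not pass the filter, so 59 were tested. Their counts are to be read beside the 39.6% of all tested genes called against NC-1 and the 43.4% called against Parent. Outside the naming rule, *ETV1*, *AREG*, *HBEGF* and *FOS* were named after their values were seen. They were lower than in NC-1 but not called against Parent. These are a selection from such genes, since *DUSP10* was another (log2 fold change -0.40, limma adjusted p = 0.00698 against NC-1 and 0.237 against Parent). *DUSP7*, *DUSP10* and *EREG* were named outside the rule as well. In the list of other output genes used with several of the 9 in scores of MAPK activity (*CCND1*, *EPHA2* and *EPHA4*), 0 were called higher and 1 lower against NC-1, and 1 higher and 1 lower against Parent. *CCND1*, the cyclin D1 gene, fell from 75.8 and 78.3 FPKM in NC-1 to 60.7 and 55.7 FPKM with miR-4711-5p (log2 fold change -0.40, limma adjusted p = 0.00144) and by 0.42 on the log2 scale against Parent (limma adjusted p = 0.00100). The ephrin receptor gene *EPHA2* had a log2 fold change of 0.07 against NC-1 (limma adjusted p = 0.353) and of 0.25 against Parent (0.0114, lost without Parent replicate 2 at 0.0576 and without miR-4711-5p replicate 1 at 0.0856). *EPHA4* was not called against either, with limma adjusted p-values of 0.0701 and 0.541, although without the trend it was called lower against NC-1 (0.0177).

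Other MAP kinase phosphatases went both ways, like the 3 among the 9 genes. Of 6 tested, 3 were called higher and 2 lower against NC-1, and the same numbers against Parent. Beside *DUSP9*, the lower gene was *DUSP10* against NC-1 and *DUSP7* against Parent. *DUSP2*, a nuclear phosphatase, had 2.92 and 2.69 FPKM in Parent, 3.24 and 2.03 FPKM in NC-1 and 6.29 and 5.84 FPKM with miR-4711-5p, a rise of 0.98 on the log2 scale against NC-1 (limma adjusted p = 0.00233) and 0.89 against Parent (0.00313). *DUSP1*, an immediate early phosphatase that acts on several MAP kinases, rose by 0.65 and 0.71 (limma adjusted p = 0.00117 and 0.000711). *DUSP16*, which acts mainly on JNK and p38, rose by 0.37 and 0.61 (limma adjusted p = 0.0109 and 0.00118), and its call against NC-1 was lost without NC-1 replicate 1 (0.0595), without miR-4711-5p replicate 1 (0.0769) and without miR-4711-5p replicate 2 (0.0506). *DUSP9*, an ERK phosphatase with an 8mer site, was at 2.54 and 2.58 FPKM in NC-1 and 1.05 and 1.28 FPKM with miR-4711-5p, and fell by 0.72 and 0.83 (limma adjusted p = 0.00184 and 0.000839).

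Among the relatives of the Sprouty, SPRED, PEA3 and PHLDA genes, 6 were tested, and 1 was called higher and 2 lower against each reference. *ETV1*, the PEA3 relative of *ETV4* and *ETV5*, had a mean level of 1.56 FPKM in Parent, 2.69 FPKM in NC-1 and 1.89 FPKM with miR-4711-5p. It was lower than in NC-1 (log2 fold change -0.35, limma adjusted p = 0.0232) and was not called against Parent (0.18, limma adjusted p = 0.175, and 0.0416 without the trend). The call against NC-1 was lost without any 1 of the 4 libraries, with an adjusted p of 0.0569 without NC-1 replicate 1, 0.0628 without NC-1 replicate 2, 0.0781 without miR-4711-5p replicate 1 and 0.0942 without miR-4711-5p replicate 2. *PHLDA2*, an imprinted gene of the *PHLDA1* family, had 53.2 and 45.6 FPKM in Parent, 24.6 and 27.2 FPKM in NC-1 and 64.8 and 66.1 FPKM with miR-4711-5p. It therefore rose by 1.31 on the log2 scale against NC-1 (limma adjusted p = 3.51e-05) and by 0.40 against Parent (0.00628), with NC-1 the lowest group. *PHLDA3*, a p53 target that inhibits AKT, fell by 0.46 and 0.53 (limma adjusted p = 0.00483 and 0.00242).

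Ligands of the EGF receptor family are another ERK output, and *ERRFI1* encodes an inhibitor of these receptors. Of these 5 genes, 1 was called higher and 4 lower against NC-1, 2 higher and 1 lower against Parent, and 4 higher and 0 lower for NC-1 against Parent, where 27.2% of all tested genes were called, 12.1% higher. The call of the ligand gene *AREG* for NC-1 against Parent (limma adjusted p = 0.0217) was lost without a filter (0.0740) and with only the 2 groups compared (0.0509). It was also lost without either Parent library or without NC-1 replicate 1. *TGFA*, a ligand of the EGF receptor, had 29.3 and 28.8 FPKM in Parent, 34.0 and 31.3 FPKM in NC-1 and 14.1 and 14.4 FPKM with miR-4711-5p, and fell by 1.14 and 0.98 on the log2 scale (limma adjusted p = 1.4e-05 and 2.34e-05). *ERRFI1* was at 47.0 and 51.9 FPKM in Parent, 69.0 and 70.8 FPKM in NC-1 and 95.7 and 93.3 FPKM with miR-4711-5p. It rose by 0.43 against NC-1 and 0.92 against Parent (limma adjusted p = 0.00109 and 2.91e-05), and 1 of its 4 annotated transcripts with a 3′ UTR holds an 8mer site. The ligand genes *AREG* and *HBEGF* had log2 fold changes of -0.78 and -0.53 against NC-1 (limma adjusted p = 0.00184 and 0.00214) and of -0.30 and -0.0039 against Parent (0.0708 and 0.976, and 0.0209 for *AREG* with only the 2 groups compared). The remaining ligand gene, *EREG*, was lower than in NC-1 (-0.22, limma adjusted p = 0.0288) and higher than in Parent (0.74, limma adjusted p = 0.000134). Its call against NC-1 was lost without a filter (0.0563) and with an equal sum of FPKM (0.0871). It was also lost without either NC-1 library or without miR-4711-5p replicate 2.

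Of 8 immediate early genes, which respond to ERK within a short time, 4 were called higher and 1 lower against NC-1, and 4 higher and 0 lower against Parent. The called share was 62.5% against NC-1, where that of all tested genes was 39.6%, and 50% against Parent, where it was 43.4%. The 1 lower gene, *FOS*, which encodes an AP-1 subunit, had a mean of 11.5 FPKM in Parent, 17.0 FPKM in NC-1 and 10.9 FPKM with miR-4711-5p (log2 fold change -0.60 and limma adjusted p = 0.000884 against NC-1, -0.08 and 0.428 against Parent). *IER2* rose by 0.57 and 0.59 on the log2 scale (limma adjusted p = 0.000603 and 0.000463). *EGR1*, a zinc finger transcription factor, rose by 0.35 and 0.36 (limma adjusted p = 0.0154 and 0.0125). The call of *EGR1* was lost against NC-1 without NC-1 replicate 2 (0.0779), miR-4711-5p replicate 1 (0.0523) or miR-4711-5p replicate 2 (0.104), and against Parent without Parent replicate 2 (0.0795) or miR-4711-5p replicate 2 (0.0866).

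Among the genes upstream, 8 receptors, 9 adaptors and RAS regulators and 14 genes of RAS, RAF, MEK, ERK and RSK were tested. Called higher and lower against NC-1 were 1 and 2 receptors, 1 and 4 adaptors and 1 and 3 of the kinase list. Against Parent the counts were 2 and 2, 3 and 2, and 1 and 5. The called shares against NC-1 were 37.5%, 55.6% and 28.6%, and against Parent 50%, 55.6% and 42.9%, where 39.6% and 43.4% of all tested genes were called. The receptor gene *FGFR3* fell by 0.85 and 0.97 on the log2 scale (limma adjusted p = 0.000125 and 5.78e-05). *SHC1*, an adaptor that links receptors to RAS, fell by 0.17 and 0.26 (limma adjusted p = 0.0142 and 0.00215), with the call against NC-1 lost without NC-1 replicate 2 (0.0570), miR-4711-5p replicate 1 (0.0643) or miR-4711-5p replicate 2 (0.0858). *SOS1*, an activator of RAS, fell by 0.38 and 0.28 (limma adjusted p = 0.00567 and 0.0183), with the call against Parent lost without Parent replicate 2 (0.0888), miR-4711-5p replicate 1 (0.0526) or miR-4711-5p replicate 2 (0.108), and with an equal sum of FPKM (0.118). *ARAF*, a RAF kinase, fell by 0.26 and 0.39 (limma adjusted p = 0.0150 and 0.00270), with the call against NC-1 lost without NC-1 replicate 2 (0.0780), miR-4711-5p replicate 1 (0.0922) or miR-4711-5p replicate 2 (0.0659).

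**Figure D3:**
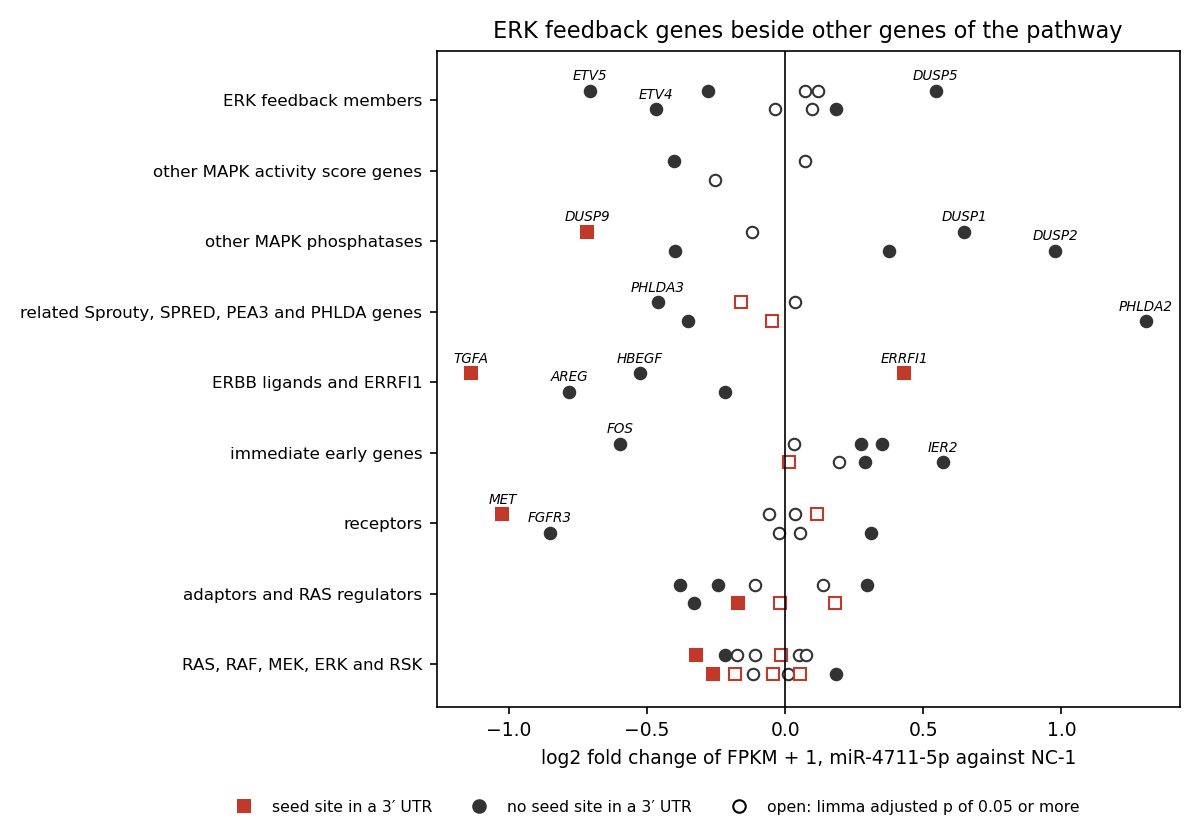
Log2 fold change of FPKM + 1 for miR-4711-5p against NC-1 (horizontal axis) of the 9 ERK feedback genes (top row) and of 59 other pathway genes by list; red squares have a seed site in an annotated 3′ UTR, black circles have none, and open symbols have a limma adjusted p of 0.05 or more. The top row holds no squares and runs from -0.71 (*ETV5*) to 0.55 (*DUSP5*).

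The plot of pathway genes by list marks the genes that have a seed site in at least 1 annotated 3′ UTR. Of the 59 tested genes, 17 had one and 42 had none. Of the 9 that were called lower against both references, 5 had a site (*ARAF*, *DUSP9*, *MET*, *SHC1* and *TGFA*) and 4 had none (*CCND1*, *FGFR3*, *PHLDA3* and *SOS1*), and of the 7 called higher against both, *ERRFI1* had one. Over all tested genes, 15.4% were lower and 10.0% higher against both, and of those with an annotated 3′ UTR a site was in 34.2% of the lower (624 of 1825) and 14.2% of the higher (162 of 1143). The other 11 genes with a site, *BRAF* among them, were not called in the same direction against both references. *DUSP4*, *ETV4* and *ETV5* stand with the genes that were lower and had no site.

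The tested genes outside the list with the profile most like *DUSP5*, by the Euclidean distance of log2(FPKM + 1) from the Parent mean over the 6 libraries, were *OSBPL3* (distance 0.0744), *HAS2* (0.0755) and *NAV3* (0.119). *HAS2*, a hyaluronan synthase gene, had 33.1 and 33.3 FPKM in Parent, 36.9 and 35.7 FPKM in NC-1 and 54.3 and 54.7 FPKM with miR-4711-5p. The genes most like *ETV5* were *DDI2* (0.117), *ACSS2* (0.125) and *ADIPOR1* (0.132). *ADIPOR1*, an adiponectin receptor gene, had 83.3 and 83.3 FPKM in Parent, 85.1 and 88.1 FPKM in NC-1 and 47.1 and 51.9 FPKM with miR-4711-5p.

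Promoter sequence from RefSeq (GRCh38.p14, 250 bases before to 50 bases after a start) was matched for 5 of the genes, *DUSP6*, *PHLDA1*, *SPRED1*, *SPRY2* and *SPRY4*, with 7 promoters in all. No promoter was searched for *DUSP4*, *DUSP5*, *ETV4* and *ETV5*, which were called against both references. The core letters of an ETS site, CCGGAA on either strand, were in 1 promoter of *SPRY2* and in that of *PHLDA1*. They were in 17.2% of the 35116 promoters searched. Neither the CRE letters TGACGTCA nor the AP-1 letters TGANTCA, searched on both strands, were in any of the 7. Of the promoters searched, 1.85% and 7.71% held them. Such matches describe these windows and are not binding sites.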

How the data were processed

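The authors prepared strand-specific mRNA libraries (TruSeq), sequenced them in 75-base single-end mode on a HiSeq instrument, mapped the reads to hg19 and calculated FPKM. The submitters' processing notes name TopHat2 2.1.1, Bowtie2 2.3.5.1, SAMtools 1.2, Cufflinks 2.2.1 and Cuffdiff. The study's methods name other versions of some of these, and Cuffnorm 2.2.1 for the FPKM. The gene annotation and strand option are not given in the sources used here. The deposited values are FPKM per gene symbol, in 1 file per library. A median-of-ratios scaling over all genes above 0 hardly moved the median log2 fold change of all tested genes. The shifts were -0.0010 against NC-1, -0.00086 against Parent and 0.00022 for NC-1 against Parent. Whether the deposited values had already been scaled between libraries was not tested. As they are no counts, count models were not applied, and the depth is known only relative to other libraries. The sources do not say which of the study's control RNAs the label NC-1 stands for.

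The 12040 genes that averaged 1 FPKM or more across the 6 libraries were tested on log2(FPKM + 1) with limma 3.58.1 in R 4.3.3 (eBayes with a trend), all 3 groups in 1 fit, with 3 residual and 4.15 prior degrees of freedom. Tests were two-sided, with Benjamini-Hochberg adjustment over all tested genes at 0.05. An exact permutation test of 2 against 2 libraries cannot give a p under 0.333. Fold changes are ratios of mean FPKM, and errors are limma standard errors. The steps were tested on simulated data.

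Symbols were matched to GENCODE v44 transcripts lifted to GRCh37, the same build as hg19, directly (10597), through RefSeq synonyms (593) or not (850). Python 3.11.15, pandas 2.3.3, numpy 2.4.6 and matplotlib 3.10.9 were used. All 9 genes, *MET* and *BRAF* were named, the first of the 8 lists was named whole, and from each other list up to 4 genes called with the same sign against both references. The 9 genes and the lists were chosen with earlier results of these data known. The alternatives were other scalings, pseudocounts, filters and designs.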

Additional observations from a re-analysis of the deposited data

How the results depend on the processing

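No call of the 9 genes changed direction. *DUSP5* and *ETV4* kept theirs against both references under all 14 alternatives, and *ETV5* under 13, since a filter at a mean of 5 FPKM removed it. With 1 library left out in turn, where the lone library of a group was taken to vary like the others, 3 to 4 genes were called against NC-1, 6 to 9 against Parent and 0 to 0 for NC-1 against Parent, beside 2815 to 3645, 3164 to 3990 and 1355 to 2154 genes called in all. The differences between replicates 1 and 2 were hardly correlated between groups across genes (0.06, 0.00 and -0.01). This cannot show whether libraries of the same number were prepared together. With the replicate number as a block, 5, 8 and 0 of the 9 genes and 4564, 4983 and 2864 genes in all were called. *SPRED1* against Parent was not called with this block (limma adjusted p = 0.0644), without a filter (0.0987), without the trend (0.0519) or with only the 2 groups compared (0.0741). For NC-1 against Parent, 4 of the 9 genes (*SPRED1*, *DUSP5*, *SPRY4* and *PHLDA1*) were called with median-of-ratios scaling (3189 genes in all), 2 with a pseudocount of 0.1 (3351), 2 with one of 0.5 (3308), 2 with a filter at 5 FPKM (3145), and 0 by limma without a filter, without the trend or with only the 2 groups (5 in each at an unadjusted p under 0.05, where 28.0%, 39.6% and 37% of all tested genes were, 5 with the block, where 39.5% were, and 2 to 3 with 1 library left out, where 32.4% to 36.3% were), and the genes called in all, 3279 before, were 2165 without a filter, 2759 without the trend and 2252 with only the 2 groups. A further choice made after seeing the data, an equal sum of FPKM, gave 6 of the 9 genes there (3327 in all), moved the median log2 fold change of all genes by 0.05, 0.12 and 0.07 in the 3 comparisons, and moved the share of higher genes among those called from 46.5% to 58.4% against NC-1, from 43.1% to 69.3% against Parent and from 44.4% to 69.9% for NC-1 against Parent. Requiring in addition a ratio of mean FPKM of at least 5 to 4, also chosen after seeing the data, left 3, 5 and 0 of the 9 genes and 3104, 3447 and 1787 genes in all. The causes were not tested beyond what each alternative removes. Protein features of the genes were not analysed here. FPKM without counts limits the precision known for low genes such as *ETV5*.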
